A study of Mus musculus with 7 samples.

Results

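Small RNA pathways silence messages and transposons, and the germline keeps much of their machinery in granules that lie among the mitochondria. The 10 genes described here code for that machinery: *Drosha*, *Dgcr8* and *Dicer1* of microRNA and endogenous siRNA processing, the argonautes *Ago1* and *Ago2*, and the piRNA and germ granule genes *Piwil2*, *Mov10l1*, *Tdrkh*, *Ddx4* and *Mael*. They were taken by gene symbol, and all 10 were found among the 22877 genes of the table. The oocytes came from secondary follicles of mice aged 8 weeks (C57BL/6J by the labels), and 4 WT and 3 *Mfn1*-/- RNA libraries were made, each from a pool of 5 oocytes. The *Mfn1*-/- mice carried floxed *Mfn1* with Cre under the *Zp3* promoter, which removes the gene in the oocyte from the primary follicle stage on, while the granulosa cells keep it, and WT littermates were the controls. The comparison asked how the oocyte transcriptome differed when this mitochondrial fusion protein was absent.

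The values are the authors' means of normalized counts, 1 for each genotype. Values of single libraries were not analysed here and the authors' own test of each gene was not used, so no mean below has an SD and no difference is set against the spread between libraries. Weighting the WT mean by 4 and the *Mfn1*-/- mean by 3 gave the deposited total, to within 1%, for 100% of the genes, which shows that the means cover all 7 libraries. The depth of each library is not given in the sources used here. Each pool held the same number of oocytes in both genotypes, and normalized values do not give the amount of RNA per oocyte.

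In somatic cells, DROSHA and its partner DGCR8 cut primary microRNA transcripts in the nucleus, and DICER trims the resulting hairpins in the cytoplasm. DICER also cuts long double-stranded RNA into endogenous siRNAs, which argonaute proteins carry to matching messages. Mouse oocytes depend on the siRNA branch: loss of *Dicer1* or of AGO2 slicing disturbs meiosis, whereas microRNA activity is weak and *Dgcr8* is dispensable there. The piRNA branch works without DICER and loads PIWI argonautes in nuage, the germ granule material between mitochondria. It is essential in the male mouse germline, and most mouse females lacking a piRNA factor are fertile.

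The libraries were checked against the deleted gene and against cell type markers. *Mfn1* stood at 0.616 in WT oocytes and at 0.0577 in *Mfn1*-/- oocytes, a ratio to WT of 0.0937. Where a pair of means is given without names, the *Mfn1*-/- mean comes first. All 12 oocyte markers were in the table, with summed means of 4129 and 3712, led by *Ooep* at 1310 and 1120. Of 12 granulosa cell markers 11 were in the table, with sums of 2.32 and 1.67, and of 0.445 and 0.717 without *Inha*. Theca and stroma markers (4 of 6 in the table) summed to 0.150 and 0.163. Of 5 blood and immune cell markers 2 were in the table, and 1 of them, *Cd68*, stood at 7.58 in *Mfn1*-/- and 0.672 in WT, while *Csf1r* stood at 0.0316 and 0.0426. The part of these markers in the values below was not tested. Ratios were taken after adding 0.1 to each mean, and the median log2 ratio of the 6226 genes that reached a mean of 1 was 0.16, a 1.12-fold higher *Mfn1*-/- mean.

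**Figure D1:**
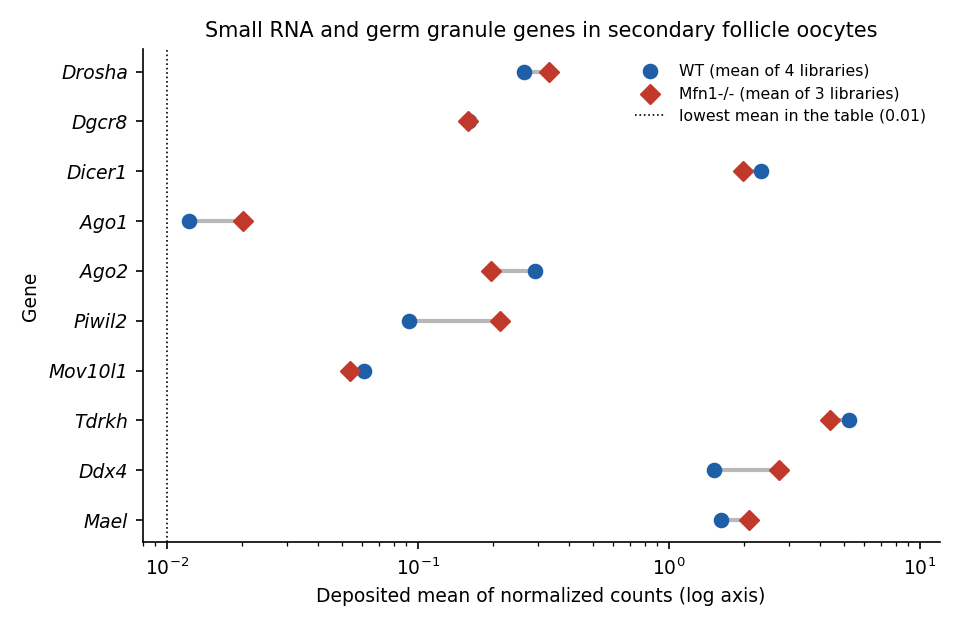
Deposited mean of normalized counts (log axis) of the 10 small RNA and germ granule genes in WT (blue circles) and *Mfn1*-/- oocytes (red diamonds), each joined by a grey line. The values run from 0.0123 for *Ago1* in WT to 5.21 for *Tdrkh* in WT, and the longest line on this axis belongs to *Piwil2* (0.0923 and 0.213).

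The level of the 10 genes spanned a wide range, and it did not follow the branch of the pathway. Over the 7 libraries *Tdrkh* had the highest mean (4.85), followed by *Dicer1* (2.17), *Ddx4* (2.04) and *Mael* (1.82). These 4 genes had a mean of at least 1, which 72.8% of all genes in the table did not reach. *Drosha*, *Ago2*, *Dgcr8* and *Piwil2* lay between 0.1 and 1. *Mov10l1* (0.0578) and *Ago1* (0.0156) lay below 0.1, and *Ago1* was near the lowest value of the table, 0.01.

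Whether the authors' normalization included transcript length is not given in the sources used here. If it did, the values per kb below correct for length a second time. Over all genes, the median mean was 0.369 in the shortest eighth by exonic length and 0.115 in the longest. Divided by exonic length, in kilobases of the union of exons, the order of the 4 highest genes became *Mael* (1.05 per kb), *Tdrkh* (0.790), *Ddx4* (0.676) and *Dicer1* (0.13). The other 6 followed per kb as *Drosha* (0.0496), *Piwil2* (0.0272), *Dgcr8* (0.0207), *Ago2* (0.0179), *Mov10l1* (0.0138) and *Ago1* (0.00193). The exons of *Dicer1* cover 16750 bases and those of *Mael* 1733. The mean of *Dicer1* was 13.6 times that of *Dgcr8* and 7.38 times that of *Drosha* on the deposited scale, and 6.26 and 2.62 times per kb. Which neighbours in either order differ beyond the spread between libraries was not tested.

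All 10 genes lay within 2-fold between the genotypes after 0.1 was added to each mean. The *Mfn1*-/- mean was the higher one in 5 genes and the lower one in 5. With a mean of at least 1, none of the 4 genes was past 2-fold in either direction, beside 5.44% of all 6226 such genes past 2-fold higher and 3.24% past 2-fold lower. With the minimum at 0.1, none of 8 was past 2-fold, beside 7.25% higher and 4.24% lower among 13830 genes. At 1.5-fold, *Ddx4* was past the threshold among the 4 genes and *Ddx4* and *Piwil2* among the 8, both with the higher mean in *Mfn1*-/-. The shares of all genes were then 15.5% higher and 7.71% lower at the minimum of 1, and 17.3% and 9.73% at the minimum of 0.1. The other 8 genes lay within 1.5-fold with the 0.1 added, which says little for *Ago1* and *Mov10l1*, whose means were below it. Without the addition, the ratio of *Mfn1*-/- to WT was 1.63 for *Ago1*, and the WT mean of *Ago2* was 1.503 times its *Mfn1*-/- mean. The median log2 ratio over the 10 genes was 0.046, beside 0.037 over all genes, and for the 4 that reached a mean of 1 it was 0.062, beside 0.16.

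**Figure D2:**
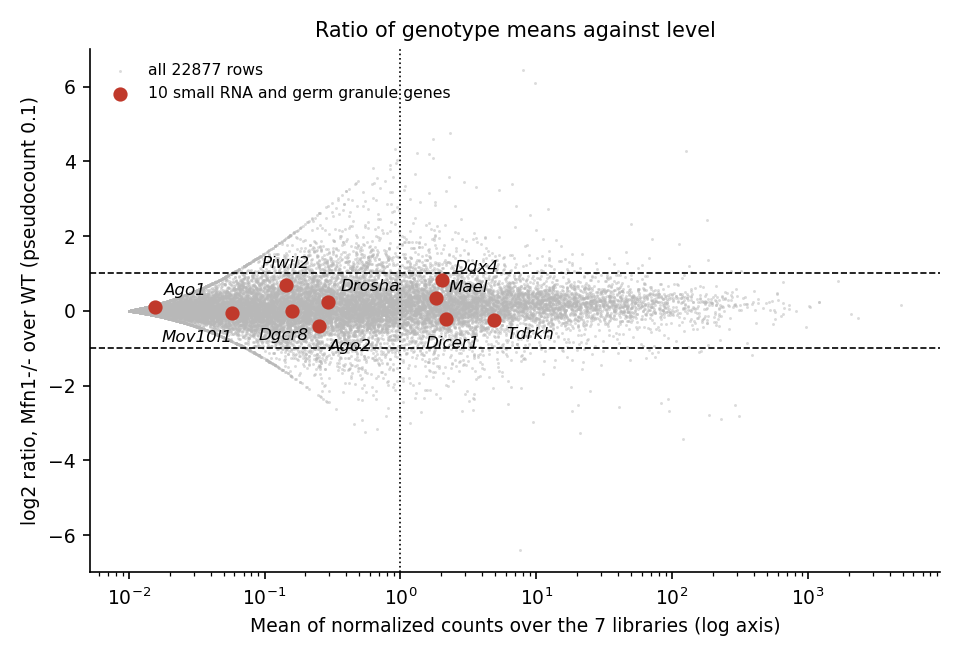
log2 ratio of the *Mfn1*-/- to the WT mean (with 0.1 added to each) against the mean over the 7 libraries (log axis), for all 22877 genes (grey) and the 10 small RNA and germ granule genes (red). Dashed lines mark 2-fold and the dotted line a mean of 1, and all 10 red points lie between the dashed lines, *Ddx4* (0.82) nearest to the upper one.

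The 3 processing genes lay within 1.5-fold between the genotypes. *Drosha* (chr15:12824815-12935291, plus strand, GRCm38), the nuclease of the Microprocessor, averaged 0.334 in *Mfn1*-/- oocytes against 0.265 in WT, a log2 ratio of 0.25. *Dgcr8* (chr16:18253948-18289246, minus strand), its RNA-binding partner, had means of 0.159 and 0.160 and a log2 ratio of -0.0056. Exons of *Dgcr8* overlap 825 bases of *Trmt2a* on the other strand, whose means were 2.08 and 1.44, and whether the counting used strand is not given in the sources used here. With its overlapping genes included, *Dgcr8* shares stretches of at least 75 bases at 95% identity or more with 15 annotated genes.

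*Dicer1* (chr12:104687742-104751952, minus strand) averaged 1.98 in *Mfn1*-/- oocytes against 2.32 in WT, a log2 ratio of -0.22. Of the 6226 genes that reached a mean of 1, 18.9% had a lower ratio. Relative to the median of those genes its log2 ratio was -0.38. Mouse oocytes make a shortened DICER from a retrotransposon-derived promoter inside an intron, and a table with 1 value per gene does not separate that form from the full-length one. Long stretches, as defined for *Dgcr8*, are shared between *Dicer1* exons and 49 other annotated genes, so some of its reads may be assigned uncertainly.

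The argonautes carry the small RNA, and AGO2 is the one that slices targets. *Ago2* (chr15:73095844-73184935, minus strand) averaged 0.195 in *Mfn1*-/- oocytes against 0.293 in WT, a log2 ratio of -0.41. It overlaps 219 exonic bases of *Chrac1* on the other strand, which had means of 1.74 and 0.842. *Ago1* (chr4:126435012-126468583, minus strand) had means of 0.0201 and 0.0123, both so close to the lowest value of the table that its log2 ratio of 0.097 rests on the pseudocount, and relative to the median of expressed genes it was on the other side of 0 (-0.062). The other argonautes, named after their values were seen, were *Ago3* with 0.325 and 0.648 and *Ago4* with 0.0175 and 0.0436. Summed over *Ago1* to *Ago4*, the means came to 0.558 in *Mfn1*-/- and 0.997 in WT, a ratio of 0.559 with nothing added. Most of both sums came from *Ago3*, while *Ago1* went the other way, and each of these genes had a mean under 1. *Ago4* shares long stretches, as defined for *Dgcr8*, with 31 other annotated genes.

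Among the piRNA genes, *Piwil2* had the largest ratio of deposited means of the 10 genes. PIWIL2 (MILI) is the PIWI argonaute that starts piRNA amplification. *Piwil2* (chr14:70372477-70429383, minus strand) averaged 0.213 in *Mfn1*-/- oocytes against 0.0923 in WT, a ratio of 2.31. Both means are near the 0.1 that was added, so the log2 ratio was 0.70 with that addition, 1.12 with 0.01 and 0.15 with 1, so the gene crossed 2-fold with a pseudocount of 0.01 or none and not with 0.1 or 1.

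*Mov10l1* (chr15:88982909-89055152, plus strand), the helicase that feeds piRNA precursors to the nuclease, had means of 0.0539 and 0.0608 and a log2 ratio of -0.063. *Tdrkh* codes for a tudor protein anchored in the mitochondrial outer membrane, where it holds PIWI proteins for trimming of the piRNA ends. It averaged 4.38 in *Mfn1*-/- oocytes against 5.21 in WT, a log2 ratio of -0.25, and 17.5% of the 6226 genes that reached a mean of 1 had a lower ratio. The gene lies at chr3:94413273-94434668 (plus strand) and shares such stretches with 8 other annotated genes. Its exons overlap 2255 bases of *Oaz3* on the other strand, which had means of 0.118 and 0.220.

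*Ddx4*, the VASA helicase that marks germ cells and their granules, had the largest difference among the 4 genes that reached a mean of 1. It averaged 2.74 in *Mfn1*-/- oocytes against 1.51 in WT, a ratio of 1.81 and a log2 ratio of 0.82. Of the 6226 genes, 8.34% had a higher ratio, and relative to their median its log2 ratio was 0.66. *Mael*, a nuage protein needed for transposon silencing, had means of 2.08 and 1.62 and a log2 ratio of 0.34, or 0.18 relative to the median, with 31.8% of the genes higher. No exon of another annotated gene overlaps *Ddx4* (chr13:112598333-112652475, minus strand) or *Mael* (chr1:166201201-166238747, minus strand), and neither shares long stretches with one.

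**Figure D3:**
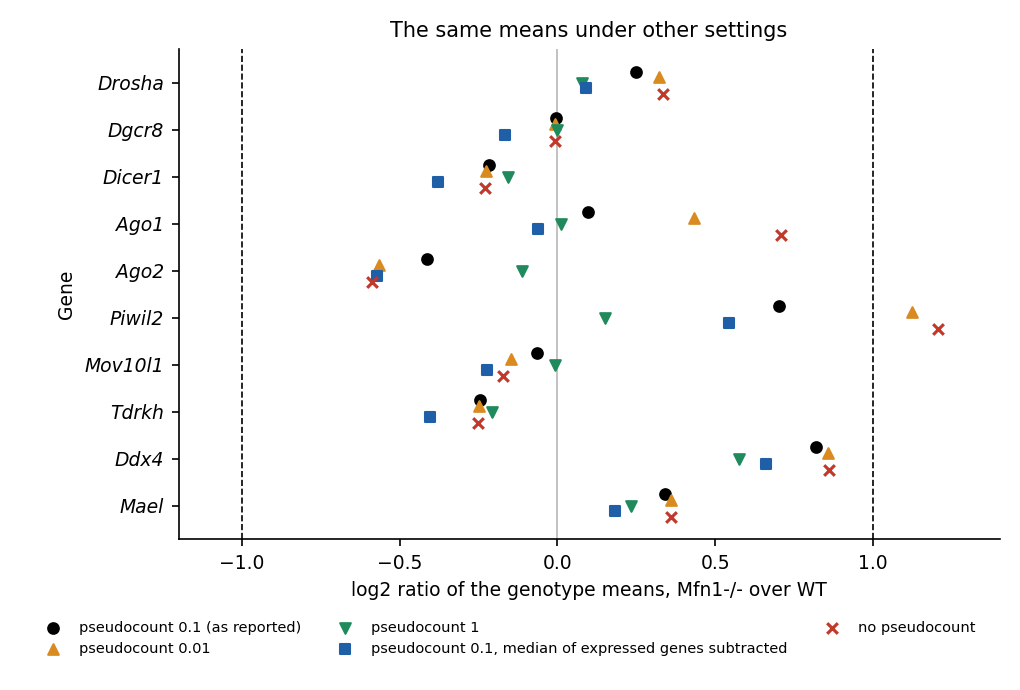
log2 ratio of the *Mfn1*-/- to the WT mean for each of the 10 genes under 5 settings, with dashed lines at 2-fold. A pseudocount cannot move a gene across 0, so only the centred setting could, and it moved *Ago1* alone. *Piwil2* runs from 0.15 with a pseudocount of 1 to 1.21 with none.

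The sequences just before the start of transcription are shown for *Mael*, *Tdrkh* and *Dicer1*, 3 of the 4 genes that reached a mean of 1, to show the motifs counted below. The stretch for *Dicer1* precedes the full-length gene and not the intronic promoter of the oocyte form. They are the 250 bases upstream of the RefSeq start (GRCm38.p6), read along the gene's strand, with CCAAT boxes (CCAAT, or ATTGG where the box lies on the other strand) and E-boxes (CACGTG) in capitals. They come from chr1:166238745-166238994 (minus strand), chr3:94412994-94413243 (plus strand) and chr12:104751953-104752202 (minus strand).
Mael: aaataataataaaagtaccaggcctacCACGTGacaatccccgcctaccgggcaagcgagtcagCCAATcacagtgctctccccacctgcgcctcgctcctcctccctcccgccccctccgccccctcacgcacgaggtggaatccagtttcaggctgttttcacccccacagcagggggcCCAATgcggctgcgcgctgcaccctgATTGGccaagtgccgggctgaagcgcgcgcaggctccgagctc
Tdrkh: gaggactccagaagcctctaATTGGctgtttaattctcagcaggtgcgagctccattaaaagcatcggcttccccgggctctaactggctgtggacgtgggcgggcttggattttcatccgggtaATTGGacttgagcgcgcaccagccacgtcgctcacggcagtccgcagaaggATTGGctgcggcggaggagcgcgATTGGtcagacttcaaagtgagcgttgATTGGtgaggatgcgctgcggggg
Dicer1: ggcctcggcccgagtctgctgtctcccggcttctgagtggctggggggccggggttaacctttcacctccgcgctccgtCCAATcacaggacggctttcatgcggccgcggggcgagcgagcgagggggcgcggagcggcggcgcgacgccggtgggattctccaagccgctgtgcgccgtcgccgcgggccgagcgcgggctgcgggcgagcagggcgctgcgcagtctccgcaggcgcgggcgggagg
RefSeq promoters were matched for 8 of the 10 genes, 9 promoters in all since *Ago1* has a pair of overlapping ones. The motifs were chosen after the sequences were seen, and both strands were searched in these 250 bases. A CCAAT box was in 9 of the 9 promoters and in 33.8% of all 32817, with 5 boxes in *Tdrkh*, 3 in *Mael* and 1 in *Dicer1*. A GC box (GGGCGG) was in 8 of the 9 and in 32.7% of all. The CACGTG E-box was in 3 of the 9, *Mael*, *Ddx4* and *Mov10l1*, and in 6.02% of all. None of these motifs overlapped another in the 9 promoters, whose G and C content was 58.4% to 76% beside a median of 52.4% over all. For *Ddx4* and *Mov10l1*, 30 bases holding the E-box are given, from chr13:112652322-112652351 (minus strand) and chr15:88982744-88982773 (plus strand).
Ddx4: ggcgtccgcccgCACGTGcagccgtttaag
Mov10l1: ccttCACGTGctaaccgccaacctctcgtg
The E-box letters precede the RefSeq starts of genes at unlike levels (means of 2.04 for *Ddx4*, 1.82 for *Mael* and 0.0578 for *Mov10l1*), and these matches describe the letters only. For *Ddx4* they lie inside the gene as positioned above, whose GENCODE start at 112652475 is further upstream than the RefSeq one.

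The wider pathway was described with 7 gene lists that hold 80 genes of the table, 70 of them not among the 10 above, and the highest means of a list are named on the deposited scale. Of the 70, 25 had a mean of at least 1. Among these 25, *Fkbp6* and *Prmt5* were past 2-fold higher and *Trim71* was past 2-fold lower. These counts are near the 5.44% and 3.24% of all genes at that minimum. With 4 of the 10 above included, the 29 list genes at that minimum had a median log2 ratio of -0.095, beside 0.16 for all genes. FKBP6, a co-chaperone that helps load PIWI proteins, averaged 1.53 in *Mfn1*-/- oocytes against 0.701 in WT (log2 ratio 1.03). PRMT5 methylates the arginines of PIWI proteins that tudor domains bind, and its gene had means of 2.09 and 0.924 (1.10). TRIM71, an RNA-binding repressor that is itself a microRNA target, had means of 1.56 and 3.34 (-1.05). Exons of *Trim71* overlap 135 bases of *C130032M10Rik* on the other strand, with which it shares long stretches, as defined for *Dgcr8*. None of these 3 genes belongs to the 10, and relative to the median of the expressed genes *Fkbp6* (0.87) and *Prmt5* (0.94) lay within 2-fold while *Trim71* (-1.21) did not.

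**Figure D4:**
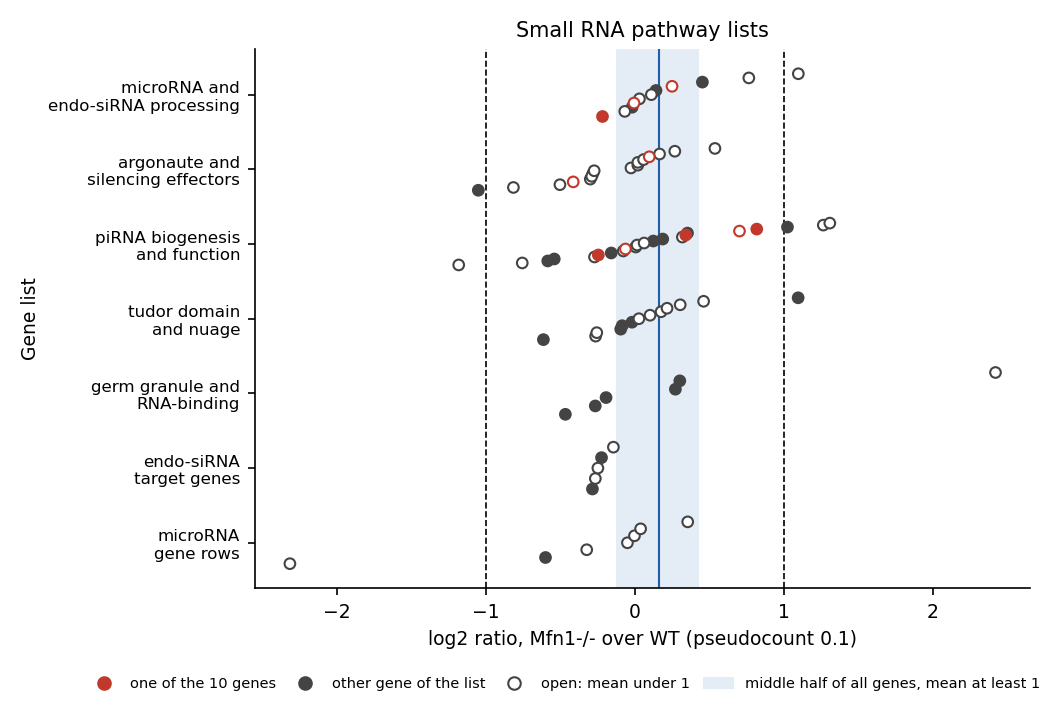
log2 ratio of the *Mfn1*-/- to the WT mean (0.1 added) for the 80 genes of 7 small RNA pathway lists, with the 10 genes of this account in red, genes with a mean under 1 drawn open, and the blue band covering the middle 50% of all genes with a mean of at least 1. Most points lie between the dashed 2-fold lines, and all 5 endo-siRNA target genes lie between -0.28 and -0.14.

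The processing list had 11 genes, and 0 of the 4 with a mean of at least 1 were past 2-fold. Its highest levels belonged to *Ran*, the GTPase of nuclear export, with 47.3 and 47.9, *Tarbp2*, which codes for a DICER partner, with 12.7 and 11.5, and the helicase gene *Ddx5* with 10.5 and 7.64. *Ddx17*, a Microprocessor helicase gene named after its values were seen, had means of 0.936 and 0.384. The 16 argonaute and effector genes had a median log2 ratio of -0.15 (all genes 0.037), and 14 of them had a mean under 1. The *Mfn1*-/- mean was lower in 9 of the 16 and higher in 7. Medians of the other lists were 0.11 (processing), 0.039 (piRNA), 0.027 (tudor and nuage) and 0.039 (germ granule). For the siRNA targets the median was -0.25 and for the microRNA gene rows -0.050. After *Trim71* the highest of the 16 effector genes were the decapping genes *Dcp1a* (1.94 and 2.38) and *Dcp2* (0.619 and 0.919).

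Of the piRNA list, 22 of 23 genes were in the table, 10 with a mean of at least 1. The highest was *Gtsf1*, which codes for a PIWI cofactor, with 24.2 in *Mfn1*-/- and 22.2 in WT. Next came *Nanos2*, an RNA-binding regulator of germ cells, with 10.9 and 16.4, and *Henmt1*, the piRNA end methyltransferase, with 6.44 and 7.20. Of the 1563 exonic bases of *Nanos2*, 766 overlap *Gm45058* on the other strand. Exons of *Henmt1* overlap *Gm9857*, also on the other strand. If the counting ignored strand, some reads of *Nanos2* and *Henmt1* may come from these other genes. The PIWI genes *Piwil1* (0.0191 and 0.0437) and *Piwil4* (0.0154 and 0.0142), named after their values were seen, lay below *Piwil2* in both genotypes, on the deposited scale and per kb. *Spocd1*, a factor of piRNA-directed DNA methylation also named after its values were seen, had means of 0.0916 and 0.335, a log2 ratio of -1.18. In the tudor and nuage list *Tdrd12* (3.16 and 4.89), *Tdrd1* (2.21 and 2.35) and *Tdrd5* (2.16 and 2.19) had the highest means, with log2 ratios of -0.61, -0.085 and -0.019. Over the 13 genes of that list the *Mfn1*-/- mean was higher in 7 and lower in 6.

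Some piRNA factors placed on the mitochondrial outer membrane, the membrane that MFN1 fuses, were set side by side after their values were seen. Beside *Tdrkh* (4.38 and 5.21), *Asz1*, whose protein GASZ has been reported to bind mitofusins, averaged 1.35 in *Mfn1*-/- oocytes against 2.01 in WT, a log2 ratio of -0.54. *Pld6*, the outer membrane nuclease of piRNA processing, had means of 0.589 and 0.178 (1.31), and *Gpat2* had 0.857 and 0.298 (1.27). The *Mfn1*-/- mean was thus lower for *Tdrkh* and *Asz1* and higher for *Pld6* and *Gpat2*, which both had a mean under 1. Other genes of the piRNA list were left out of this set. Among them, *Pnldc1* (named after its values were seen) had means of 1.74 and 1.34 (0.35).

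The germ granule and RNA-binding list had 6 of its 8 genes in the table, led by *Dazl* (47.0 and 38.9), *Ddx3x* (10.9 and 15.1) and *Ybx2* (8.34 and 9.55), which code for translation regulators and an RNA helicase. *Dnd1*, an RNA-binding germ cell factor named after its values were seen, had the highest log2 ratio of all 80 genes, 2.42, from means of 0.926 and 0.0923. It overlaps 140 exonic bases of *Wdr55* on the other strand, with means of 5.25 and 4.23, and shares long stretches with a pseudogene of its own.

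The endogenous siRNA target genes known from mouse oocytes were listed beside *Dicer1* and *Ago2*. All 5 had the lower mean in *Mfn1*-/-, with log2 ratios from -0.28 to -0.14 and a median of -0.25, while the median of all genes with a mean of at least 0.1 was 0.11. Of those genes, 39.6% had a ratio below that of *Dgcr8* (-0.0056). A share of 28.4% lay below *Rangap1* (-0.14), the highest of the 5. *Pdzd11* had 41.6 and 50.7, *Kif4* 1.39 and 1.64, and *Ppp4r1* 0.207 and 0.269. *Hdac1* (0.177 and 0.229) and *Rangap1* (0.157 and 0.184) were named after their values were seen. *Pdzd11* and *Kif4* overlap over 832 exonic bases on opposite strands, so these points may share reads. The log2 ratio of *Dicer1* was -0.22, and none of these differences was tested here.

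The table also held 7 rows for microRNA genes and their host transcripts. Smart-Seq2 primes on poly(A) tails, so these rows count longer transcripts over those places and not mature microRNAs. *Mir22hg* averaged 1.22 in *Mfn1*-/- oocytes against 1.91 in WT, *Mir703* had 0.342 and 0.453, and *Mir8094* was listed at 0.01, the lowest value, in *Mfn1*-/- and at 0.448 in WT. The last lies with 90 bases inside an exon of *Ddx39b* on the same strand, which had means of 4.81 and 3.67. Of the 3 highest rows, 2 are microRNA genes and not host transcripts. Their mature sequences are given from RefSeq (GRCm38.p6), with the seed, bases 2 to 8, in capitals. They lie at chr5:98475616-98475636 (minus strand) and chr17:35251314-35251334 (plus strand).
mmu-miR-703: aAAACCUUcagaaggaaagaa
mmu-miR-8094: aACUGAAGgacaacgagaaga
The seeds of the pair differ.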

How the data were processed

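RNA from 5 pooled oocytes per library was amplified with Smart-Seq2 and sequenced as 75 bp paired-end reads. Adapters were removed by the authors with Cutadapt and low-quality reads with the FASTX-Toolkit. STAR was used for alignment to GRCm38/mm10, and reads were counted per gene. The annotation version, the normalization scale and the strand setting are not given in the sources used here. The signal in the deposited table is the authors' mean of normalized counts per genotype, with a lowest value of 0.01 (937 genes in *Mfn1*-/- and 922 in WT), and a total over libraries. The series' design text gives 3 samples per group, while the labels and the totals give 4 WT. The table also holds the authors' own ratio, fold change, p-value and FDR of the comparison, which were not used. The table holds means and no library columns, so neither a count test nor the limma fit planned for library columns was run.

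Ratios were log2((*Mfn1*-/- mean + 0.1)/(WT mean + 0.1)), which understates differences of low genes. A gene counted as past a fold only above the minimum mean over the 7 libraries (1, or 0.1 where said). Median means went from 0.369 in the shortest eighth of genes (median exonic length 511 bases) to 0.115 in the longest (10114 bases). Gene positions and lengths came from GENCODE M21, shared stretches from blastn 2.17.0, with Python 3.11.15 and pandas 2.3.3. The ratio step was tested on simulated means. The 10 genes and the lists were chosen with earlier results of these data known. Named genes were the 10, *Mfn1*, other list genes past 2-fold with a mean of at least 1, and the 3 with the highest mean in each list. Others are said to be named after their values were seen. Alternatives were other pseudocounts, fold thresholds, minimum means and centring on the median of expressed genes.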

Additional observations from a re-analysis of the deposited data

How the results depend on the processing

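No paired analysis was possible because the table holds 1 mean per genotype, and for the same reason the fits with a replicate block and without each replicate in turn were not run. None of the 10 genes was past 2-fold lower under any of the settings tried. The count past 2-fold higher, 0 as reported, became 1 (*Ddx4*) at a fold threshold of 1.5 (15.5% of all genes). With settings chosen after seeing the data it became 1 (*Piwil2*) of 8 at a minimum mean of 0.1 without a pseudocount, where 10.9% of all genes were past 2-fold higher, and 2 (both genes) at a minimum of 0.1 and 1.5-fold (17.3% of all genes). Centring on the median of expressed genes changed the sign of 1 gene, *Ago1*. The pathway lists had 29 genes with a mean of at least 1, 64 with at least 0.1 and 80 in all. Their count past 2-fold higher went from 2 to 0 with a pseudocount of 1 (2.79% of all genes) or with centring (3.87%), to 6 at a minimum mean of 0.1 (7.25%) or no minimum (4.87%), and to 8 at 0.1 without a pseudocount (10.9%). The count past 2-fold lower went from 1 to 4 at 1.5-fold (7.71%), to 0 with a pseudocount of 1 (1.7%), and to 3 at a minimum of 0.1 (4.24%), no minimum (2.75%), or 0.1 without a pseudocount (6.91%). Library values and the authors' own test were not used here, so no difference was set against the spread between libraries.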
